A study of Mus musculus with 10 samples.

Results

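Circadian clock genes were examined in ribosome-bound RNA of the mouse ventral tegmental area, the midbrain region whose dopaminergic neurons serve reward and motivation. The 10 genes, listed by name as core clock and clock output genes, were Per1, Per2, Per3, Cry1, Cry2, Nr1d1, Nr1d2, Dbp, Arntl (or Bmal1) and Clock. All 10 were found among the 56691 genes of the deposited table, and all 10 were among the 18440 genes with enough counts to be tested. The restraint group held 5 libraries of male C57BL/6 animals that were immobilized for 30 min (acute restraint), and the control group 5 libraries of male C57BL/6 animals left unrestrained. All 10 libraries carry the label WT for genotype and rest on dopaminergic neurons that carried NBL10-HA, the tagged protein behind the enrichment. The promoter behind that construct, the age of the animals and the time of day at which tissue was taken are not given in the sources used here. Whether a library stands for 1 animal is not stated either, so p-values measure the spread between these libraries.

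The circadian clock of mammals is a feedback loop of transcription that runs in nearly every cell type. CLOCK and BMAL1, the product of Arntl, bind E-box sequences as a pair and switch on the Per and Cry genes, Nr1d1, Nr1d2 and Dbp. PER and CRY proteins return to the nucleus and repress that pair, and the nuclear receptors REV-ERB alpha (Nr1d1) and REV-ERB beta (Nr1d2) repress Arntl. Per1, and in some tissues Per2, can also be switched on outside the cycle, through CREB after neuronal activity and through the glucocorticoid receptor after stress.

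The promoter table of RefSeq (GRCm38.p6) gave 13 windows for 9 of the 10 genes, all except Per2, and the 250 bases before each start site were searched on both strands. The E-box CACGTG lay in windows of Per1 and Cry1, in 2 of 13 windows against 6.02% of all 32851 windows in the table. The related letters AACGTG lay in windows of Cry1, Cry2 and Nr1d1, against 3.85% of all windows. The D-box TTATGTAA, the site of DBP and its relatives, was found in the window of Per3 at 205 and 158 bases before the start, against 0.819% of all windows. The nuclear receptor core site AGGTCA lay in windows of Per1, Nr1d2 and Clock, against 14% of all windows. The CREB site TGACGTCA was found in 0 of 13 windows, against 1.55% of all. With so low a share, 0 of 13 says little, and bases farther from the start and Per2 were not searched. Letters in these windows are a description and say nothing of binding. The windows of Per1 and Nr1d1 are shown because these genes deviated together most closely among the libraries, and that of Cry1 because it holds both E-box forms. Each is written 5′ to 3′ on the strand of the gene and ends just before the start site, and capitals mark the E-box or its related form.
Per1, chr11:69098699-69098948, plus strand: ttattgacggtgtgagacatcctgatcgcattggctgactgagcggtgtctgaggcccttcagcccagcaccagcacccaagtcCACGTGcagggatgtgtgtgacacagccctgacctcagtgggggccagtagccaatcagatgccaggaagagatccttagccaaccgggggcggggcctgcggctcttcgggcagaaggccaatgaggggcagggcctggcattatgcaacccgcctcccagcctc
Nr1d1, chr11:98775378-98775627, minus strand: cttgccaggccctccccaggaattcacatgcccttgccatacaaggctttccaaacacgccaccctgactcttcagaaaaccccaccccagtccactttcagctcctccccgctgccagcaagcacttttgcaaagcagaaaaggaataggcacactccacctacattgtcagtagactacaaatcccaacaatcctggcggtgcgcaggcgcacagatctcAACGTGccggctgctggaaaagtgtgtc
Cry1, chr10:85185055-85185304, minus strand: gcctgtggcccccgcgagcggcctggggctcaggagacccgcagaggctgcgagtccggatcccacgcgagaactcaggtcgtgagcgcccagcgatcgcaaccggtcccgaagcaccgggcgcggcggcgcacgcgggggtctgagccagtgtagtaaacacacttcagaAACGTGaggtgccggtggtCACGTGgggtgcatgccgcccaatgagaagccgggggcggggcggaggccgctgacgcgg
The E-box of Per1 begins 166 bases before this start site, and the related letters in Nr1d1 begin 28 bases before its start. In Cry1 the E-box begins 60 bases and the related letters 79 bases before the start.

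Libraries held 56082358 to 86584968 counts, and a clock gene held between 824 (Arntl) and 21216 (Nr1d2) counts in a library. Levels below are CPM, counts scaled by library total and by TMM normalization, which sets libraries on a common scale, and levels are compared between genes only per kilobase of exon (RPKM). On a first principal component with 22.6% of the variance, restraint 1 lay at -92.1 and the remaining libraries between -4.08 and 19.2. The dopamine neuron marker Th had 477 ± 65.3 CPM in restraint libraries and 411 ± 78.6 CPM in controls (SD, n = 5 each). Slc6a3, another dopamine neuron marker, had 227 ± 51.5 CPM in restraint libraries and 232 ± 49.2 CPM in controls. The astrocyte marker Gfap had 2471 ± 316 and 1919 ± 121 CPM. RNA of other cells was therefore present, and as clock genes are used by nearly all cells, no level here is assigned to a cell type. Fewer cells of a type and less RNA per cell cannot be told apart in these data.

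None of the 10 clock genes passed the test after restraint. The test was edgeR's quasi-likelihood test with Benjamini-Hochberg adjustment over all genes and a threshold of 0.05. Of the 10 genes 0 were higher and 0 lower, and 0.0217% of all genes tested passed. Before adjustment, 2 of the 10 had p under 0.05 (11.7% of all genes tested). They were Per2, on the higher side as were 5.64% of all genes, and Nr1d1, on the lower side as were 6.04%. DESeq2 and limma-voom also passed 0 of the 10, and DESeq2 passed 1.8% of all genes tested. The groups overlapped for each of the 10 genes, while 2.61% of all genes tested had groups without overlap. The median log2 fold change of the 10 genes was -0.03, with 2 positive and 8 negative. Over all genes tested the median was -0.00 and 49.6% were positive. Among the 8 negative, Per1, Per3, Nr1d2 and Arntl lay between -0.03 and -0.00 and changed sign under some settings. The median size of the 10 fold changes regardless of sign was 0.06. It was 0.10 over the 7781 genes with control levels between those of Arntl and Nr1d2.

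**Figure D1:**
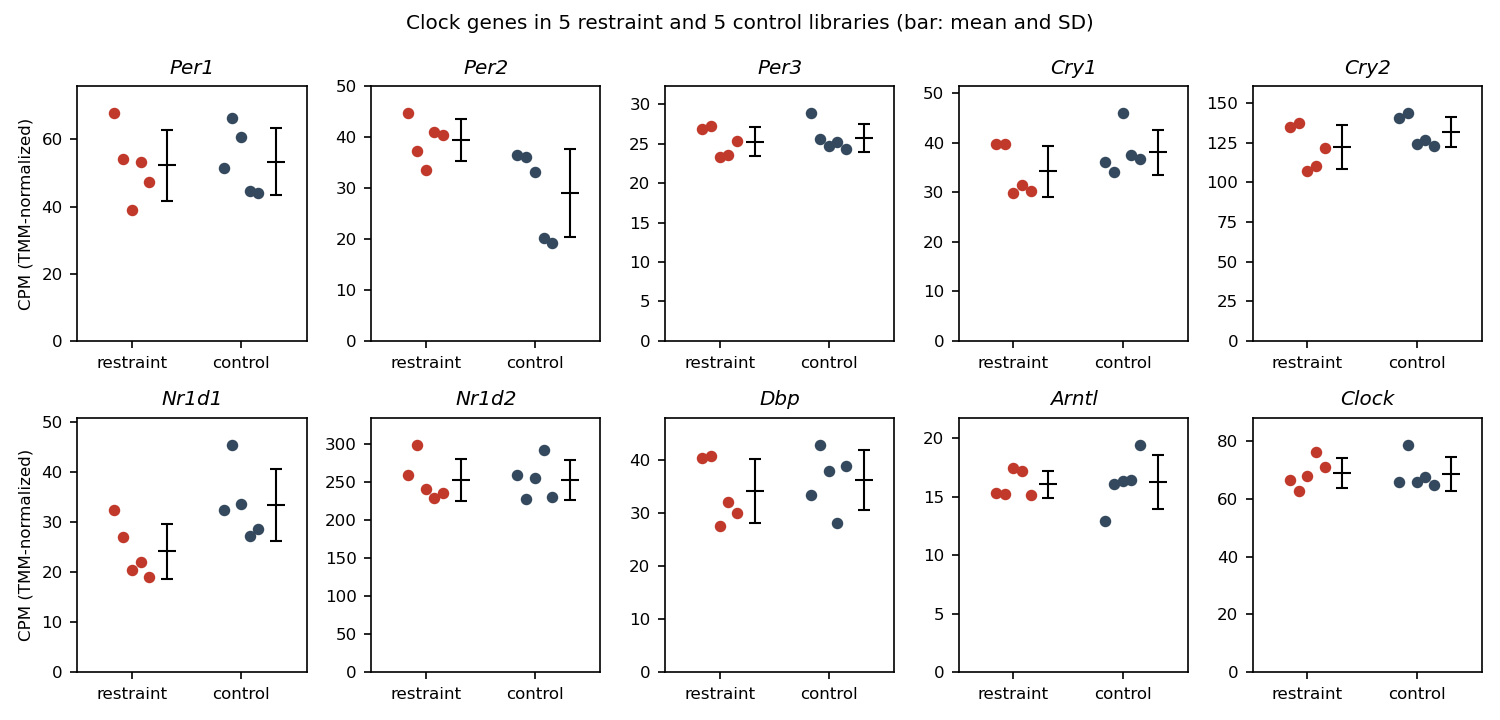
Level of each clock gene in CPM (vertical axis, from 0) in the 5 restraint libraries (red, left) and the 5 control libraries (dark, right), with mean and SD as bars. Restraint and control points overlap for every gene, and for Per2 controls 4 and 5 lie near 20 CPM, apart from the other 8 libraries.

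Of the period genes, which encode the PER repressors, Per2 (chromosome 1, 91343704 to 91387046, GRCm39) had the largest log2 fold change. Per2 stood at 44.7, 37.2, 33.6, 41.0 and 40.4 CPM in restraint libraries 1 to 5, against 36.5, 36.1, 33.1, 20.2 and 19.2 CPM in controls 1 to 5. Controls 4 and 5 were low, controls 1 and 2 lay within the restraint range and control 3 just below it. Its log2 fold change was 0.44 ± 0.16 (SE; 95% interval 0.09 to 0.79; adjusted p = 0.29 with edgeR, 0.112 with DESeq2), with 5 of 5 restraint libraries above the control median. All 5 restraint libraries lay on 1 side of the control median for 22.2% of all genes tested. The log2 fold change of Per2 was 0.33 without control 4 and 0.32 without control 5. Per2 passed (adjusted p = 0.0309) when no filter on low counts was applied, a setting under which 103 genes passed as higher and 199 as lower of 32529 tested.

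Per1 (chromosome 11, 68986043 to 69000786), the period gene best known for rapid induction, did not differ between the groups beyond the spread of its libraries. Per1 stood at 67.8, 54.1, 38.9, 53.4 and 47.4 CPM in restraint libraries 1 to 5, against 51.4, 66.3, 60.7, 44.5 and 44.0 CPM in controls 1 to 5. The lowest and the highest Per1 values of all libraries both came from the restraint group. Its log2 fold change was -0.03 ± 0.14 (SE), and the 95% interval ran from 0.798 to 1.20 times the control level. Per3, a period gene less needed for the rhythm itself, had 25.2 ± 1.85 CPM after restraint and 25.7 ± 1.81 CPM in controls (SD, n = 5 each), a log2 fold change of -0.03 ± 0.09 (SE).

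Genes known to respond to activity were measured in the same libraries. Fos, an early gene of neuronal activity, had 162 ± 29.9 CPM after restraint and 111 ± 23.5 CPM in controls, and the nuclear receptor gene Nr4a1 58.9 ± 8.94 and 36.0 ± 10.7 CPM (SD, n = 5 each). Neither passed with edgeR (adjusted p = 0.168 and 0.125) and both did with DESeq2 (adjusted p = 0.017 and 0.00295), and each was above the control median in 5 of 5 restraint libraries. Crem, a gene that CREB induces, stood at -0.04 ± 0.13 on the log2 fold change scale (SE). Tsc22d3 and Sgk1, which the glucocorticoid receptor induces, stood at 0.19 ± 0.13 and 0.46 ± 0.22 (adjusted p = 0.619 and 0.42 with edgeR, 0.509 and 0.444 with DESeq2). The differences between Per1 and these genes were not tested.

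The cryptochromes, the partners of PER in repression, lay slightly below the controls without passing. Cry1 had 34.2 ± 5.14 CPM after restraint and 38.1 ± 4.55 CPM in controls, a log2 fold change of -0.16 ± 0.11 (SE). Cry2 had 122 ± 13.7 CPM after restraint and 132 ± 9.59 CPM in controls, a log2 fold change of -0.11 ± 0.09 (SE). Restraint libraries 1 and 2 were the 2 highest of their group for each cryptochrome, at 39.7 and 39.8 CPM for Cry1 and at 135 and 137 CPM for Cry2.

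Of the REV-ERB genes, Nr1d1 had the smallest p of the 10 clock genes. Nr1d1 stood at 32.5, 27.1, 20.5, 22.1 and 19.1 CPM in restraint libraries 1 to 5, against 32.4, 45.5, 33.6, 27.4 and 28.6 CPM in controls 1 to 5. Restraint libraries 2 to 5 lay below every control, number 2 only just, and restraint 1 lay among the controls. Its log2 fold change was -0.47 ± 0.15 (SE; 95% interval -0.79 to -0.14; adjusted p = 0.229 with edgeR, 0.0706 with DESeq2), with 4 of 5 restraint libraries below the control median. It was -0.59 without restraint 1, the library apart on the principal component, and -0.33 without control 2. Like Per2, it passed without a filter on low counts (adjusted p = 0.016). Its paralogue Nr1d2 had 253 ± 28.1 CPM after restraint and 253 ± 25.8 CPM in controls, a log2 fold change of -0.00 ± 0.09 (SE), so the 95% interval ran from 0.876 to 1.14 times the control level.

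Counts of Nr1d1 are limited by its neighbour. The gene (chromosome 11, 98658758 to 98666159, GRCm39) shares 8.55% of its exon bases with Thra, which encodes a thyroid hormone receptor on the opposite strand, and reads that touch both genes were left out. Thra had 552 ± 38.4 CPM after restraint and 507 ± 44.2 CPM in controls (SD, n = 5 each), far above Nr1d1, and its log2 fold change was 0.12 ± 0.08 (SE). Dbp (chromosome 7, 45354512 to 45359627) likewise shares 18.0% of its exon bases with Sphk2 on the opposite strand, a sphingosine kinase gene with 35.3 ± 3.51 CPM after restraint and 36.0 ± 3.89 CPM in controls. The levels of Nr1d1 and Dbp are therefore uncertain, by an amount that was not measured. Counting set no strand, so a read from the opposite strand that touched only Nr1d1 or Dbp exons would count for that gene. Their RPKM divides by the full exon length, shared bases included. The other overlaps, of Cry2 (4.67% of its exon bases) and Arntl (0.439%), were with transcripts that held at most 3 counts in all. These counts also leave out reads that touch both genes, so they do not show how many reads were lost.

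Dbp, a transcription factor gene that the clock drives as an output, stood at 40.4, 40.9, 27.65, 32.1 and 30.2 CPM in restraint libraries 1 to 5, against 33.4, 42.9, 37.9, 28.1 and 39.0 CPM in controls 1 to 5. The groups spanned nearly the same range, and the log2 fold change was -0.08 ± 0.13 (SE). The activators, Arntl and Clock, lay close to the control level. Arntl had 16.1 ± 1.13 CPM after restraint and 16.2 ± 2.31 CPM in controls (SD, n = 5 each), a log2 fold change of -0.01 ± 0.11 (SE). Clock had 68.8 ± 5.12 CPM after restraint and 68.5 ± 5.73 CPM in controls, a log2 fold change of 0.01 ± 0.08 (SE).

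**Figure D2:**
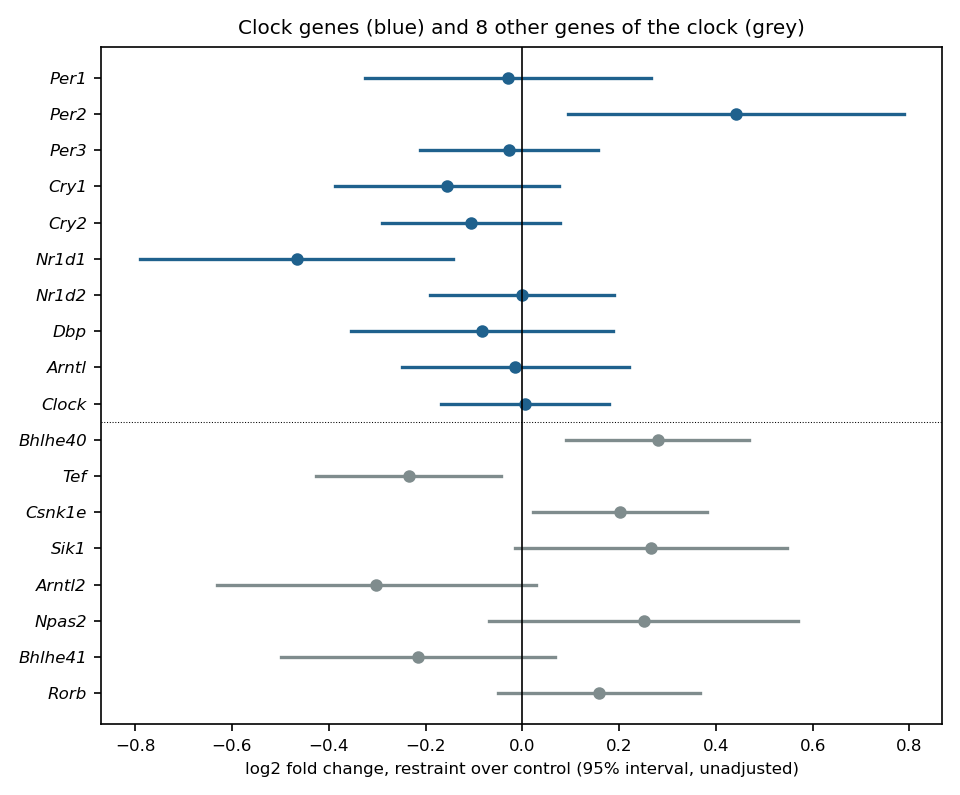
Log2 fold change, restraint over control (horizontal axis), with 95% intervals not adjusted for the number of genes, for the 10 clock genes (blue) and the 8 other genes of the clock with the smallest p (grey). The intervals of Per2 (0.09 to 0.79) and Nr1d1 (-0.79 to -0.14) leave out 0 and those of the other 8 clock genes hold it.

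Per kilobase of exon, Nr1d2 was the most abundant clock gene, at 46.7 ± 5.20 RPKM after restraint and 46.7 ± 4.77 RPKM in controls, and Cry2 came next at 19.3 ± 2.17 and 20.8 ± 1.52 RPKM (SD, n = 5 each). In controls, Dbp (12.1 RPKM), Cry1 (11.4), Nr1d1 (10.9) and Per1 (9.48) followed with ranges that overlapped between neighbours. Clock (4.99) and Per2 (4.95) also overlapped, as did Per3 (2.68) and Arntl (2.16), the least abundant. Between these steps, the control ranges of neighbouring genes did not overlap.

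The genes differed in how far libraries of 1 group lay apart. The SD of log2 CPM within groups was 0.35 for Per2, 0.30 for Nr1d1, 0.28 for Per1 and 0.24 for Dbp, and 0.10 for Per3 and 0.11 for Clock. Over the 7781 genes of like control level its median was 0.15, and 98.0% of them had a smaller SD than Per2, 96.0% than Nr1d1, 94.5% than Per1 and 90.2% than Dbp. For Per2 most of it came from the controls, with an SD of 0.46 beside 0.15 after restraint.

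Of these 4 genes, 2 pairs were tested for whether they deviated together from library to library. After the mean of each group was subtracted, Dbp and Nr1d1 were correlated over the 10 libraries (Pearson r = 0.819, exact two-sided permutation within groups p = 0.0103, adjusted 0.0458; Spearman rho = 0.842, p = 0.00889, adjusted 0.0533), among 6 pairs so tested. Per1 and Per2 were correlated as well (r = 0.740, exact permutation p = 0.0153, adjusted 0.0458; rho = 0.697, p = 0.0327, adjusted 0.0981). Each passed by Pearson r and neither by rho after adjustment. The 2 libraries farthest from the median of Dbp were control 4 and restraint 3, and without them r with Nr1d1 was 0.809. Those farthest from the median of Per1 were restraint 1 and restraint 3, and without them r with Per2 was 0.793. The choice used the first gene alone, so libraries far out in the second gene stayed in. These were restraint 1 and control 2 for Nr1d1 (0.45 and 0.47) and controls 4 and 5 for Per2 (-0.47 and -0.54). Without restraint 1, r was 0.782 (exact permutation p = 0.0236, adjusted 0.142) and 0.767 (p = 0.0576, adjusted 0.173), so neither passed. Within a group n is 5, too few for a correlation of its own.

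**Figure D3:**
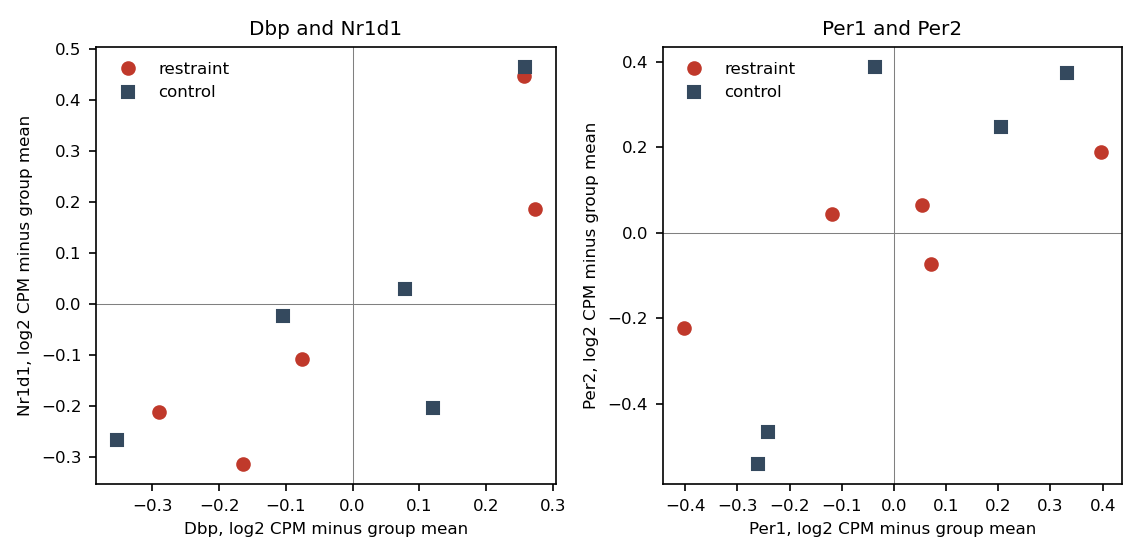
Deviation of each library from the mean of its group in log2 CPM, for Dbp against Nr1d1 (left) and Per1 against Per2 (right), with restraint libraries as red circles and controls as dark squares. In both panels, libraries high in one gene tend to be high in the other, with r = 0.819 and 0.740.

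The other 4 pairs did not pass. Arntl, which REV-ERB proteins repress, stood at r = -0.278 with Nr1d1 (exact permutation p = 0.455, rho = -0.261, p = 0.487) and at -0.0297 with Dbp (exact permutation p = 0.959, rho = -0.176, p = 0.649). Per2 and Per3 stood at 0.470 (exact permutation p = 0.159, rho = 0.467, p = 0.132), and Nr1d1 and its paralogue Nr1d2 at 0.0663 (exact permutation p = 0.86, rho = 0.0303, p = 0.948). Adjusted p of these 4 pairs ran from 0.318 to 0.959 for r. Leaving out 2 libraries changed their r to -0.348, 0.229, 0.470 and 0.483 in the order given. The 2 were those farthest from the median of Nr1d1, Dbp, Per2 and Nr1d1, without regard to the other gene of the pair.

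Among all 45 pairs, given as a description over the same 10 libraries and picked after their values were seen, the highest r were 0.876 for Per1 and Nr1d1 and 0.875 for Per3 and Cry2, and the lowest was -0.856 for Per3 and Arntl. Restraint 1 lay above its group mean for all clock genes except Arntl and Clock, and restraint 3 below it for all except Arntl. For Nr1d2 these deviations were only 0.04 and -0.06, and for Clock restraint 3 stood at only -0.02. Control 2 lay above and control 4 below theirs for Per1, Nr1d1, Dbp and Per2. Per2 and Dbp went opposite ways in control 1 (0.39 and -0.10) and in control 5 (-0.54 and 0.12). Per1, Nr1d1, Dbp and Per2 had a GC content of 56 to 58.8%, above the median of 50.5% over genes tested, and libraries differed in how log2 CPM changed with GC content. The slopes per 10% of GC ran from -0.0457 to 0.0273 in restraint libraries and from -0.0787 to 0.0754 in controls, on the log2 scale. With the GC trend of each library removed, r was 0.822 for Dbp and Nr1d1 and 0.774 for Per1 and Per2 (exact permutation, adjusted p = 0.0273 and 0.025). With the length trend of each library removed, r was 0.837 for Dbp and Nr1d1 and 0.723 for Per1 and Per2 (exact permutation, adjusted p = 0.0471 and 0.0679), so the second pair no longer passed.

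**Figure D4:**
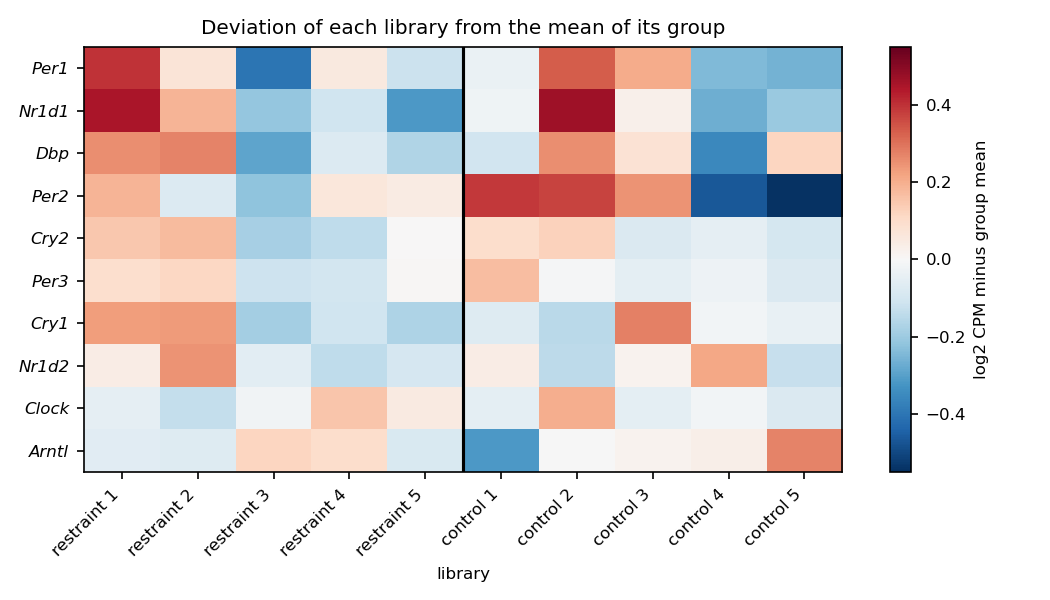
Deviation from the group mean in log2 CPM (colour) for the 10 clock genes (rows) in the 5 restraint libraries (left) and the 5 control libraries (right of the line). Per1, Nr1d1, Dbp and Per2 show the widest range, from -0.54 to 0.47, and restraint 1 and control 2 are positive for all 4 genes.

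Of 10992 other protein-coding genes with a mean of at least 5 CPM, those with deviations most like Per1 were Rev3l (r = 0.956), Etv6 (0.955) and Traf7 (0.949). Of the clock genes, Nr1d1 came at rank 23, Dbp at 217 and Per2 at 260, and the rest from 572 (Cry2) to 8459 (Arntl). Those most like Dbp were Zcchc3 (0.988), Arc (0.945) and Nim1k (0.942). Nr1d1 came at rank 39 and Per1 at rank 89, and the remaining clock genes from 314 (Cry2) to 6318 (Clock). Those most like Arntl were Chst8 (0.950), Ddx24 (0.947) and Slc27a3 (0.943), and the clock genes came at ranks from 4621 (Clock) to 10966 (Per3). The correlations given are the highest of many over 10 libraries.

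A further 28 genes of the clock, among them kinases, ubiquitin ligases and transcription factors, were listed by name and all could be tested. None of the 28 passed in either direction with edgeR or with DESeq2, and before adjustment 3 had p under 0.05 (10.7%, against 11.7% of all genes tested). Their median log2 fold change was 0.01, with 14 positive and 14 negative. The 3 were Bhlhe40, Tef and Csnk1e. Bhlhe40, which encodes the repressor DEC1 that competes for E-boxes, stood at 106, 119, 120, 101 and 86.4 CPM in restraint libraries 1 to 5, against 86.9, 83.5, 85.8, 92.3 and 90.4 CPM in controls 1 to 5. Restraint libraries 1 to 4 lay above every control and restraint 5 did not, and the log2 fold change was 0.28 ± 0.09 (SE; adjusted p = 0.218 with edgeR).

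Tef, a relative of Dbp that acts on the same D-box sites, stood at 340, 307, 259, 261 and 356 CPM in restraint libraries 1 to 5, against 369, 372, 341, 355 and 357 CPM in controls 1 to 5. All 5 restraint libraries lay below the control median, and the log2 fold change was -0.23 ± 0.09 (SE; adjusted p = 0.306 with edgeR). Csnk1e, which encodes a kinase that marks PER proteins for breakdown, had 117 ± 10.4 CPM after restraint and 102 ± 8.96 CPM in controls (SD, n = 5 each; adjusted p = 0.354 with edgeR). Below these in p came Sik1, a kinase gene that CREB induces (0.27 ± 0.13, log2 fold change ± SE), Arntl2, a paralogue of Arntl (-0.30 ± 0.16), Npas2, which can stand in for Clock (0.25 ± 0.15), Bhlhe41, the paralogue of Bhlhe40 (-0.22 ± 0.13), and Rorb, a nuclear receptor gene (0.16 ± 0.10).

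Markers of 7 cell classes were summed in each library. Over 9 dopamine neuron markers the sums ran from 1188 to 1656 CPM in restraint libraries and from 998 to 1487 CPM in controls, and over 7 astrocyte markers from 4232 to 5302 and from 3720 to 4307 CPM. The 7 oligodendrocyte markers summed to 1498 to 2091 CPM in restraint libraries and 1574 to 1924 CPM in controls, and the 3 GABA neuron markers to 901 to 1261 and 866 to 1224 CPM. The 2 glutamate neuron markers summed to 340 to 478 CPM in restraint libraries and 395 to 431 CPM in controls. Microglia (6 markers, 15.2 to 20.9 and 14.6 to 22.7 CPM) and vessels (6 markers, 12.3 to 19.0 and 9.63 to 14.5 CPM) gave the lowest sums. The groups overlapped in every sum, and no marker was at 0 in all libraries. Of the 40 markers, 0 passed with edgeR and 10 had p under 0.05 before adjustment (25.0%, against 11.7% of all genes tested). DESeq2 passed 3 (7.5%, against 1.8% of all genes tested), all higher after restraint, namely the dopamine neuron factors En1 and Foxa2 and the astrocyte gene Gfap. The part of these shifts in the values of Per2 and Nr1d1 was not tested.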

How the data were processed

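Libraries of ribosome-bound RNA, 5 after restraint and 5 controls, were grouped by sample title. The deposited table gives, for each gene and library, a whole-number read count that featureCounts 2.0.3 assigned to exons of GENCODE M30, per the file headers. The recorded command marks reads as paired without asking for pairs to be counted, so each mate counts, and it sets no strand. FastQC, Trimmomatic and STAR are named in the submitters' processing notes, as is mm10. GENCODE M30 describes GRCm39, and coordinates are those of the table. Exon lengths, which enter RPKM, are the table's own values (another number the authors deposited).

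Symbols for 52073 of 56691 genes came from GENCODE M21 by identifier. Genes were filtered with edgeR's filterByExpr (minimum count 10, minimum total 15), which left 18440, and normalized by TMM. Tests used edgeR 4.0.16 (R 4.3.3; glmQLFit and glmQLFTest with a term for group alone), Benjamini-Hochberg adjustment and a threshold of 0.05. Standard errors came from the fold change and the F statistic. Log2 CPM used a prior count of 2. Exact permutations of libraries within groups (14400, or fewer without restraint 1), figures and sequence searches used Python 3.11.15. On simulated data with 18039 genes, the test recovered 63% of added 1.5-fold and 95% of 2-fold changes. The changes were added only to well-counted genes and to many at once, whereas few genes passed in the real data. Recovery was not worked out for genes with a spread as wide as that of Per2, Nr1d1, Per1 and Dbp. The shares therefore do not give the power for these 4 genes.

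The clock genes and lists were chosen with earlier results of these data known. Named genes are the 10 clock genes, the 8 other clock genes with the smallest p, overlapping genes, 5 genes of activity and glucocorticoid response, and the 3 genes most like Per1, Dbp and Arntl. The markers Th, Slc6a3, Gfap, En1 and Foxa2 are named outside this rule, all except Th chosen after their values were seen. Alternatives were other normalizations, filters and tests (DESeq2 1.42.0, limma 3.58.1), a replicate block, halved counts, removal of length trends and leaving out each library. Removal of GC trends, and correlations with GC or length trends removed or without restraint 1, were added after the data were seen. Libraries held 56082358 to 86584968 counts, and standard errors of log2 fold changes of the clock genes were 0.08 to 0.16. They were the same with halved counts. Halving divided each count and kept the ratios between libraries, so it cannot show the effect of fewer reads.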

Additional observations from a re-analysis of the deposited data

Results flagged for a closer look

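In 3 of 36 groups of 5 libraries (18 genes, each in both groups), 1 library lay far from the other 4, and about 1 in 20 groups would be so flagged by chance. They were Per3 in control 1, at 28.85 CPM beside 24.3 to 25.6 CPM, Cry1 in control 3, at 45.9 CPM beside 34.1 to 37.5 CPM, and Clock in control 2, at 78.6 CPM beside 64.7 to 67.5 CPM. None of the 3 genes passed the test with any of these libraries left out.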

How the results depend on the processing

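Per2 stayed positive (0.32 to 0.54) and Nr1d1 negative (-0.59 to -0.33) on the log2 scale under all 23 alternatives. Their adjusted p ran from 0.0309 to 0.525 and from 0.016 to 0.485. Clock genes passed under no alternative except that without a filter on low counts, where 1 was higher (Per2) and 1 lower (Nr1d1). Cry1, Cry2 and Dbp kept their sign throughout, and none of the 10 passed with any 1 library left out. The other 5 genes, all near 0, changed sign under some settings. Nr1d2 stood at 0.00136 with RLE normalization and with DESeq2, and at 0.00076 with the GC trend removed. Clock stood at -0.00105 by library size only, -0.0036 with a minimum CPM of 1 in 5 libraries, -0.00098 with halved counts and -0.00742 with the length trend removed. Arntl stood at 0.00904 with limma-voom quality weights. With 1 library left out, Per1 ran from -0.135 to 0.0662, Per3 from -0.0629 to 0.0224, Nr1d2 from -0.0739 to 0.0515, Arntl from -0.0812 to 0.0499 and Clock from -0.0288 to 0.0648.

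Over all genes, 1 passed as higher and 3 as lower. These counts were 5 and 12 by library size only, 103 and 199 without a filter, 139 and 192 with DESeq2, 21 and 66 with limma-voom quality weights, 0 and 0 with robust estimation, 20 and 48 with the length trend removed and 6 and 12 with the GC trend removed. With 1 library left out they ran from 0 to 9 and from 0 to 83. Libraries of equal replicate number did not deviate together (correlations of deviations -0.164 to 0.027, with 0 of 5 over 0.1). Such correlations cannot show whether they were collected or processed together, and the labels do not say. With a replicate block the counts were 0 and 0, and 1704 genes had p under 0.05 before adjustment. The cause of these differences was not tested.

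Without restraint 1, r was 0.782 for Dbp and Nr1d1 and 0.767 for Per1 and Per2, neither past the threshold, and 0.0383 for Dbp and Arntl. With the length trend removed, r was 0.723 for Per1 and Per2 (permutation, adjusted p = 0.0679) and -0.0528 for Nr1d1 and Nr1d2. With the 2 libraries farthest out in the first gene of the pair left out, r was 0.229 for Dbp and Arntl. It was 0.483 for Nr1d1 and Nr1d2. Arntl, with at least 824 counts in each library, was the shallowest of the 10 genes. The 95% intervals of the 8 genes other than Per2 and Nr1d1 reach down to -0.39 (Cry1) and up to 0.27 (Per1) on the log2 scale.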
